A study of Rattus norvegicus with 45 samples.

Results

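The livers of acetaminophen (APAP) treated rats were compared between 9 h and 24 h after dosing. The members were the 5 animals killed at 24 h and the 5 killed at 9 h, 10 of the 45 rats of the series, taken by the treatment and hour that their titles give, with 1 liver array per animal. All were male Sprague-Dawley rats, 5 weeks old and fasted for 16 h, with food given again afterwards at an hour that is not stated. The APAP animals received 1000 mg/kg by oral gavage in 1% hydroxyethylcellulose, and the 5 vehicle animals of 9 h and 5 of 24 h received the hydroxyethylcellulose alone. Each animal was sampled once, so the values are of different rats at the 2 times and not of the same rat followed. The 2 times also differ in hour of day and in time since the fast, which is why the change in vehicle animals is given beside that in APAP animals.

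APAP is turned by liver cytochrome P450 enzymes into the reactive quinone imine NAPQI, which binds glutathione and, once glutathione is used up, cell proteins. Hepatocytes answer with stress programmes that are known for switching on together after such an injury: heat shock chaperones for misfolded protein, Atf4 for a shortage of amino acids or a blocked translation, Nrf2 for electrophiles, and p53 for DNA damage. The same cells carry the synthesis of fat, which belongs to the fed liver, and that of bile acids and urea. The comparison of 24 h with 9 h asks which of these programmes had changed between the 2 times.

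Values are log2 array intensities, and a change is the mean at 24 h minus the mean at 9 h, given with its standard error. The words rise and fall, and the statement that a gene passed, are kept for a difference of 1.5-fold or more with a limma p, adjusted over all genes, under 0.05. The intensity of one gene cannot be set against that of another on these arrays. The arrays measured bulk liver, where fewer cells of a type and less RNA per cell cannot be told apart. Albumin, the defining product of hepatocytes, was at 15.04, 15.04, 15.04, 15.02 and 15.03 in the 5 animals at 9 h and at 15.03, 15.02, 15.01, 15.02 and 15.06 at 24 h, close to the highest value on the arrays of 15.07. The correlation across genes between animals of a group was 0.983 to 0.994 at 24 h and 0.987 to 0.995 at 9 h, and 0 pairs of arrays were identical.

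Animals of 9 h were not all alike. On the second principal component, which held 11.5% of the variance over the 20 APAP and vehicle arrays of both times, animals 2 and 3 lay at 4.85 and 5.27 and animals 1, 4 and 5 at -5.03, -7.86 and -7.33. The mean of 13 erythroid and platelet genes was 8.40, 7.31, 7.53, 8.16 and 8.32 in animals 1 to 5, against 7.53 to 7.71 in vehicle animals of 9 h. The mean of 26 immediate early genes was split in the same way, at 9.45, 8.81, 8.79, 9.43 and 9.54. At 24 h, animal 3 stood farthest out on this component, at 27.08 against 15.85 to 20.98 in the other 4. Where leaving out either set of 9 h animals ended a call, or moved a passing change of a named gene by over 1.5 times, the value is given. This was checked for genes that the naming rule, given under the processing, took by their change in APAP animals or by the panel. It was not checked for other named genes. These sets were chosen after the arrays were seen. Without animals 1, 4 and 5 only animals 2 and 3 stand for 9 h, so fewer arrays can end a call with the change no smaller. Animals are numbered as in their titles.

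Between 9 h and 24 h, 2283 of 13877 genes passed, 16.5% of those tested. Of these, 1123 were higher at 24 h (8.09%) and 1160 lower (8.36%). Where a count of rises and falls in a list gives no share, these are the shares to set beside it. The falls were the larger changes, with 24 falls and 7 rises of over 8-fold. The 5 animals of one time did not overlap the 5 of the other for 2096 of the 2283 genes, beside 29.7% of all genes tested. The same arrays made the calls, so this count adds no separate support. Without the 9 h animals 2 and 3 the count was 2466, and without animals 1, 4 and 5 it was 2126. The median change of all genes was 0.03. When each array was instead centred on 6 ribosomal protein genes, the median moved to -0.21 and the split became 589 higher and 2075 lower, so directions are relative to the bulk of genes. Among those genes the difference between the times was 0.43 for Rpl11, 0.34 for Rps16 and -0.16 for Rpl28. Of the genes named below as rising, Dars, Gsr, C4bpa, Foxa1, Krt8, Ly86, Emcn and Ndufs1 did not pass with this centring, at 0.41 to 0.55. Dars and C4bpa did not pass with cyclic loess, at 0.55 and 0.51.

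In vehicle animals 213 genes passed between the same hours, 1.53% of those tested, with 107 higher (0.771%) and 106 lower (0.764%). Centred on the ribosomal protein genes, 364 were higher and 54 lower. Of the 107 that rose with vehicle, 54 also rose with APAP (50.5% of them, and 4.81% of the APAP rises), 16 fell and 37 did not pass. Of the 106 that fell with vehicle, 38 also fell with APAP (35.8%, and 3.28% of the APAP falls), 22 rose and 46 did not pass. The change itself differed between APAP and vehicle animals for 2279 genes, 16.4% of those tested. The split of that count was 1165 above (8.4%) and 1114 below (8.03%) the vehicle change, and it was 911 and 1325 with cyclic loess and 340 and 3496 when centred on the ribosomal protein genes.

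**Figure D1:**
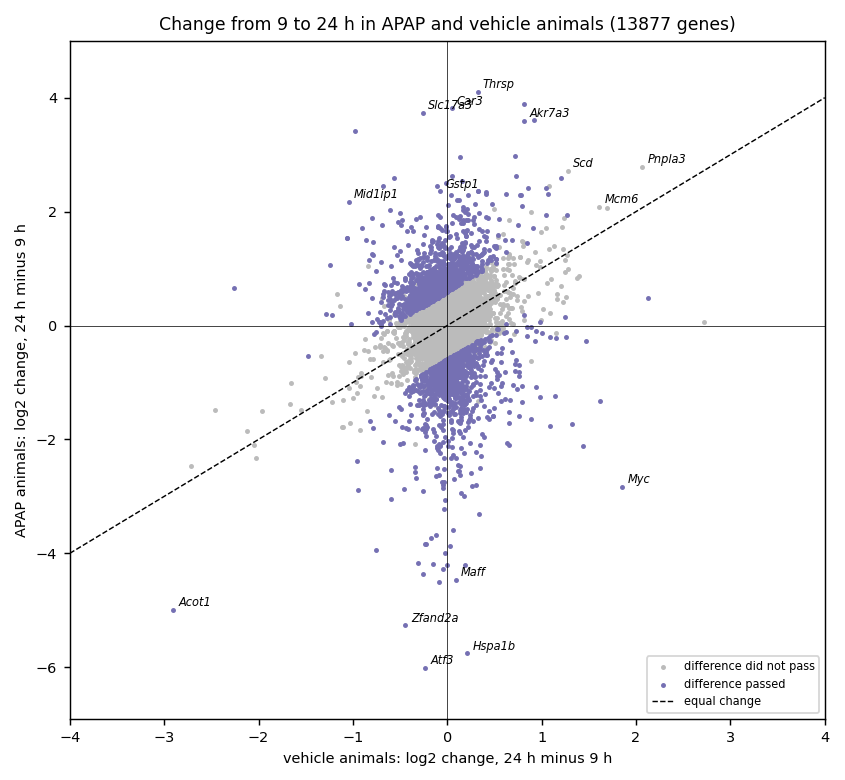
Log2 change from 9 to 24 h in vehicle animals (horizontal) and in APAP animals (vertical) for 13877 genes, with 5 animals per group and time. Genes on the dashed line changed equally in both, and the coloured genes are the 2279 whose change differed between APAP and vehicle; Atf3 and Hspa1b lie far below the line and Thrsp, Car3 and Slc17a3 far above it.

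Heat shock chaperones, which hold or refold damaged protein, were among the genes that fell most. Of 22 measured members 14 fell, 1 rose and 7 did not pass, with a median of -0.85 against 0.03 over all genes. The change was below that with vehicle for 13 members and above it for 2. Hspa1b, the inducible Hsp70, was at 13.96, 13.81, 13.98, 13.84 and 13.93 in the 5 animals at 9 h. At 24 h it was at 8.73, 8.74, 8.58, 7.88 and 6.84. Each animal at 24 h lay far below every animal at 9 h, animal 5 was the lowest, and vehicle animals of 24 h were at 7.20 ± 0.49 (mean ± SD). The change was -5.75 ± 0.31 (53.9-fold lower, limma adjusted p = 1.09e-07), beside 0.21 ± 0.20 in vehicle animals. Its distance from vehicle went from 6.92 at 9 h to 0.96 at 24 h, where it did not pass.

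Zfand2a, which delivers damaged proteins to the proteasome, fell from 13.49, 13.54, 13.64, 13.53 and 13.70 to 8.81, 8.42, 8.57, 8.29 and 7.49. The groups did not overlap, and at 1.12 it was still above vehicle at 24 h. Dnajb1, the co-chaperone that hands substrates to Hsp70, changed by -4.21 ± 0.10, Bag3, which links Hsp70 to autophagy, by -3.84 ± 0.14, Hspb8, its small heat shock partner, by -2.65 ± 0.12, and Hsph1, an exchange factor of Hsp70, by -2.59 ± 0.13. At 24 h these 4 lay at -0.17 to 0.35 from vehicle, and none passed there. The member that rose, named after its values were seen, was the small chaperone Cryab, at 0.69 ± 0.23. When arrays were centred on the ribosomal protein genes 0 members rose. Another small chaperone, Hspb1 or Hsp27, is named here after its values were seen. It was at 11.34, 11.64, 12.05, 10.41 and 10.76 at 9 h and 11.88, 11.96, 12.37, 12.08 and 11.18 at 24 h. The groups overlapped and its change of 0.65 ± 0.30 did not pass (limma adjusted p = 0.109), whereas it fell by 2.26 on the log2 scale in vehicle animals and lay 4.87 above them at 24 h, against 1.95 at 9 h.

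The heat shock factor Hsf1 binds inverted repeats of the letters GAA. In the RefSeq promoters of build GRCr8, taken from 250 bases before to 50 after each start, the letters GAANNTTC or TTCNNGAA, each its own reverse complement, stood in 15.9% of 33469 promoters. They stood in 9 of the 12 members that fell and have an entry, and in 4 of 6 members that did not pass. A member counted if any of its promoters matched, whereas the share is over single promoters, so the 2 are not counted alike. A match is a description of the letters. Promoters of 4 members that fell by over 4-fold are shown with the matches in capitals. They lie at chr19:41431092-41431391 (minus strand) for Dnajb1, chr1:192533210-192533509 (plus) for Bag3, chr12:10427118-10427417 (plus) for Hsph1 and chr12:20275200-20275499 (plus) for Zfand2a.
Dnajb1: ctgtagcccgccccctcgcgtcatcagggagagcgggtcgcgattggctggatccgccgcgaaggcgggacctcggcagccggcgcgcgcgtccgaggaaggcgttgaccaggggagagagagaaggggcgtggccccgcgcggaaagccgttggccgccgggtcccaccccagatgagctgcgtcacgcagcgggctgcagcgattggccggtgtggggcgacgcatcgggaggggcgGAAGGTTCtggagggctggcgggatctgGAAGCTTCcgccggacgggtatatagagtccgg
Bag3: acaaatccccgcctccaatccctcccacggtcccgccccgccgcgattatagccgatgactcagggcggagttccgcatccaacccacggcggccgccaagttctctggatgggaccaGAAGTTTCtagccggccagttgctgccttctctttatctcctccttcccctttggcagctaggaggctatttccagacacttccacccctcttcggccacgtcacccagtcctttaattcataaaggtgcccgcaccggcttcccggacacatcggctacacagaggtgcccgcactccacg
Hsph1: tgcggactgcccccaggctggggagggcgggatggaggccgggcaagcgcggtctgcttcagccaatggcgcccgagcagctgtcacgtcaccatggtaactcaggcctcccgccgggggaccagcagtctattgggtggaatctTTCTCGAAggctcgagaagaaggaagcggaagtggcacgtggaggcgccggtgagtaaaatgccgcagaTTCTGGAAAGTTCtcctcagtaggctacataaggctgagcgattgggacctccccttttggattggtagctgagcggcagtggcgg
Zfand2a: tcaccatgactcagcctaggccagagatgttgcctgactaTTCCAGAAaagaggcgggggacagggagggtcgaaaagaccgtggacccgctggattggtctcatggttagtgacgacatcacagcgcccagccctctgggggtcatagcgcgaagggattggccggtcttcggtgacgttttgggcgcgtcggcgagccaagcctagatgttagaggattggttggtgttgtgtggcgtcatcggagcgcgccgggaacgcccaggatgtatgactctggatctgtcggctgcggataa
Dnajb1 holds 2 matches, which begin at -11 and 18 from the start, and Hsph1 holds 3, of which the last 2 overlap and form a run of 3 inverted units. Bag3 and Zfand2a hold 1 each, at -132 and -210.

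Immediate early genes and members of the AP-1 family, which are switched on within minutes of a stimulus, fell as a group. Of 26 measured members 22 fell, 0 rose and 4 did not pass, with a median of -1.69. The change was below that with vehicle for 19. Atf3, a transcription factor induced by many stresses, was at 11.73, 11.28, 11.31, 11.62 and 11.64 at 9 h and at 5.83, 5.37, 6.04, 5.25 and 5.05 at 24 h. No animal of one time came near the other, and vehicle animals were at 5.24 ± 0.51 and 5.01 ± 0.13. Its change of -6.01 ± 0.18 (64.4-fold lower, limma adjusted p = 1.26e-09) was the largest of any named gene.

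Jun, the core subunit of AP-1, was at 12.00, 9.85, 10.16, 11.87 and 12.07 at 9 h and 7.20, 6.76, 6.83, 6.87 and 6.44 at 24 h. Animals 2 and 3 of 9 h were well below the other 3, and still above every animal at 24 h. Dusp5, a phosphatase that switches off Erk, changed by -4.49 ± 0.13, Maff, a small Maf factor, by -4.46 ± 0.13, and Klf6, a zinc finger factor of injured liver, by -3.87 ± 0.16. In vehicle animals these 3 were at -0.09 ± 0.10, 0.09 ± 0.06 and 0.02 ± 0.11. Myc, the growth regulator, was at 11.07, 10.93, 10.61, 11.30 and 11.40 at 9 h and 8.80, 7.67, 8.09, 7.97 and 8.60 at 24 h with APAP. In vehicle animals it rose, from 7.22 ± 0.48 to 9.07 ± 0.49. The difference of the changes was -4.69 ± 0.36 (limma adjusted p = 5.63e-09).

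**Figure D2:**
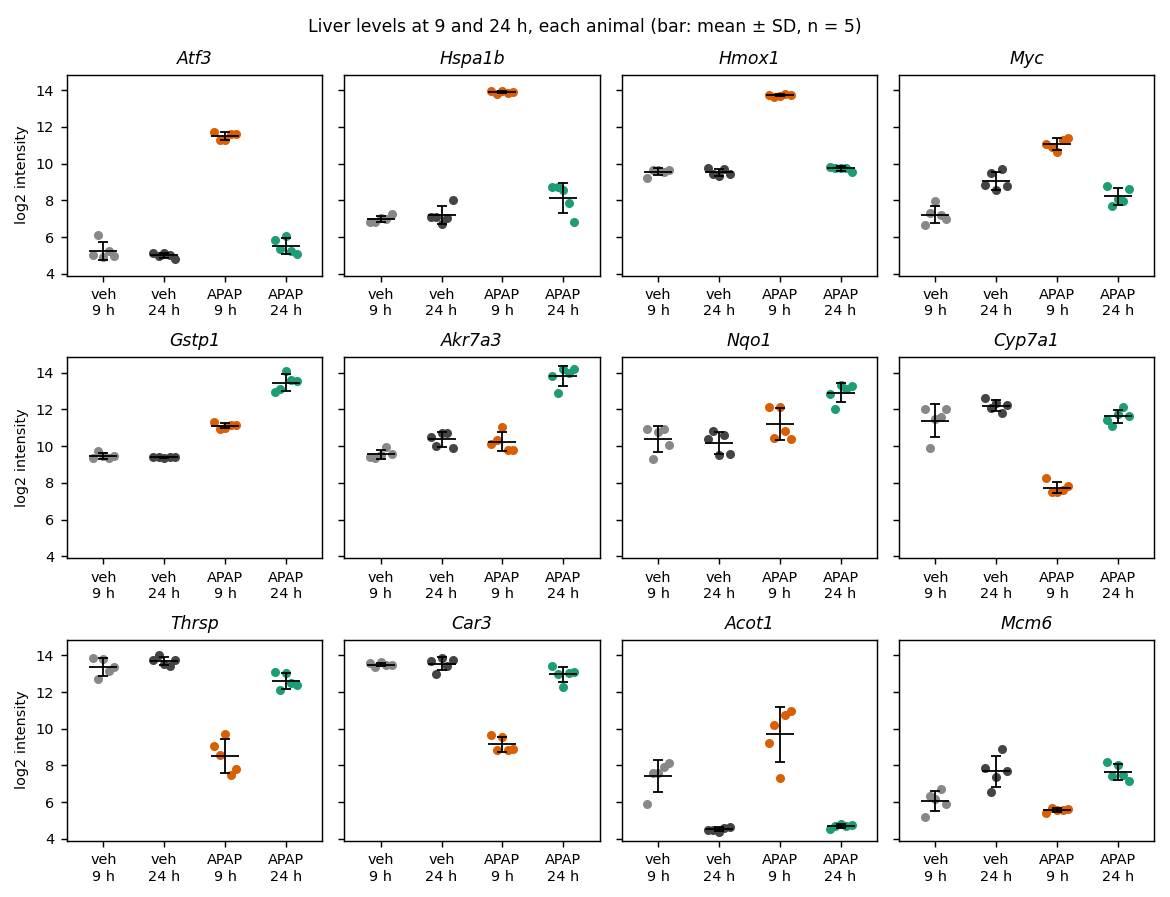
Log2 intensity of 12 genes in each of the 5 vehicle (veh) and 5 APAP animals at 9 and 24 h, with horizontal bars for the mean and whiskers for the SD. Atf3, Hspa1b and Hmox1 were high only in the 9 h APAP animals among these 4 groups, Gstp1 and Akr7a3 were highest in the 24 h APAP animals, and Acot1 was low in both 24 h groups.

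Targets of Atf4, the factor of the integrated stress response, moved in both directions. Of 25 measured members 13 fell, 4 rose and 8 did not pass, with a median of -0.66. Ddit3 or Chop, a factor that promotes cell death, was at 12.26, 11.05, 11.01, 12.11 and 12.12 at 9 h and 8.37, 7.41, 7.93, 7.91 and 7.19 at 24 h, a change of -3.95 ± 0.29 (limma adjusted p = 1.05e-06) beside -0.76 ± 0.09 with vehicle. Ppp1r15a, which restarts translation by dephosphorylating eIF2alpha, changed by -4.20 ± 0.24. Chac1, which breaks down glutathione, was at 11.71, 9.76, 9.89, 11.76 and 11.60 at 9 h and 8.36, 8.03, 8.89, 8.32 and 8.31 at 24 h. Animals 2 and 3 of 9 h lay well below the others but above all animals of 24 h. Its change was -2.56 ± 0.40, and -1.44 without the 9 h animals 1, 4 and 5. Fgf21, a hormone that the stressed and fasting liver secretes, changed by -2.94 ± 0.53 and by -1.64 without those 3 animals, and Sesn2, an inhibitor of mTORC1, by -2.51 ± 0.30.

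Trib3, a pseudokinase that restrains Atf4, was at 10.80, 10.67, 9.94, 11.22 and 10.60 at 9 h and 8.55, 7.20, 10.47, 7.73 and 8.90 at 24 h. Animal 3 of 24 h was far above the other 4 of that time and the groups overlapped. Its change of -2.08 ± 0.50 passed (limma adjusted p = 0.00512), but without the 9 h animals 1, 4 and 5 it was -1.73 (limma adjusted p = 0.109) and no longer passed. The 4 members that rose, named after their values were seen, were Phgdh (1.89 ± 0.24) and Psat1 (1.49 ± 0.28) of serine synthesis, Pycr1 of proline synthesis (1.57 ± 0.11) and Shmt2 of mitochondrial one-carbon metabolism (1.11 ± 0.10). Pycr1 and Shmt2 differed from the vehicle change, by 1.18 ± 0.18 and 0.86 ± 0.13, and Phgdh and Psat1 did not pass that test, at 0.66 ± 0.57 and 0.70 ± 0.51. Of 19 aminoacyl-tRNA synthetases, enzymes that charge tRNA and are partly under Atf4, 3 fell and 1 rose. These were Hars (-1.28 ± 0.13), Rars (-0.83 ± 0.07) and Nars (-0.80 ± 0.09), and Dars (0.65 ± 0.13), which did not pass without the 9 h animals 1, 4 and 5 at 0.41.

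The letters of the Atf4 response element searched here, TGATGNAA on either strand, stood in 3.98% of the 33469 promoters. They stood in 4 of the 13 members that fell, 1 of the 4 that rose and 0 of the 8 that did not pass. Members were again counted by any of their promoters and the share by single promoters. Promoters of 2 members that fell are shown, at chr3:126795881-126796180 (plus strand) for Chac1 and chr3:161275484-161275783 (minus) for Trib3, with the match, which reads on the opposite strand in both, in capitals.
Chac1: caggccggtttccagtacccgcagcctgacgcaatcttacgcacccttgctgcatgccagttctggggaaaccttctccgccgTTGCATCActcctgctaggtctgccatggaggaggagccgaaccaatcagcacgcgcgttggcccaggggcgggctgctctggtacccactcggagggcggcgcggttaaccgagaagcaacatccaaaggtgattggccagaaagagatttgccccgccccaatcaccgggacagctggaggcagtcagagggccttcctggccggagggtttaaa
Trib3: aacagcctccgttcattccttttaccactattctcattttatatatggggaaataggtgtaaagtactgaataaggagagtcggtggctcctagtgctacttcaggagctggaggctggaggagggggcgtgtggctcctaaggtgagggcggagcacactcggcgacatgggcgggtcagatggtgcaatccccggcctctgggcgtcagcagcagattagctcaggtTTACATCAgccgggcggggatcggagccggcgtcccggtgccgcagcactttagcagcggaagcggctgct
The match begins at -167 in Chac1 and at -21 in Trib3.

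Targets of p53, the factor that stops the cell cycle after DNA damage, fell in 11 of 21 measured members, 1 rose and 9 did not pass. The median was -0.88. Gadd45a, a damage-induced regulator of growth arrest that also answers to Atf4, was at 12.63, 12.00, 11.84, 12.64 and 12.61 at 9 h and 8.49, 7.92, 8.03, 7.97 and 7.97 at 24 h. The groups lay apart and animal 1 of 24 h was the highest of its group. Its change was -4.27 ± 0.18. Cdkn1a or p21, an inhibitor of cyclin-dependent kinases, changed by -1.24 ± 0.12, and Mdm2, which degrades p53, by -1.14 ± 0.11. Ccng1, cyclin G1, changed by -1.68 ± 0.12 and was still 0.86 above vehicle at 24 h. Sesn2, Plk3 (-2.15 ± 0.28, and -1.39 without the 9 h animals 1, 4 and 5), a polo-like kinase, and Btg2 (-2.50 ± 0.23), an antiproliferative factor, fell as well. Sesn2 is also counted among the Atf4 targets and Btg2 among the immediate early genes.

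Nrf2 targets, which make glutathione and remove electrophiles, moved in both directions. Of 26 measured members 13 rose and 5 fell, while 8 did not pass, with a median of 0.59. Their distance from vehicle of the same hour passed upwards for 13 members at 9 h (beside 8.65% of all genes) and for 16 at 24 h (beside 1.56%). Hmox1, which degrades heme, was at 13.72, 13.65, 13.71, 13.82 and 13.75 at 9 h and 9.84, 9.76, 9.78, 9.78 and 9.52 at 24 h. The 5 animals of each time lay within a narrow band, apart from the other time. It changed by -3.99 ± 0.07 (15.9-fold lower, limma adjusted p = 1.34e-11) and was 0.21 from vehicle at 24 h.

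Slc7a11, the cystine importer, counted among the Atf4 targets too, changed by -3.59 ± 0.23 and likewise lay near vehicle at 24 h, at 0.16. Srxn1, which repairs peroxiredoxins, was at 11.82, 11.84, 11.97, 11.88 and 11.82 at 9 h and 9.25, 8.70, 8.63, 8.85 and 7.79 at 24 h. Animal 5 of 24 h was the lowest, and all animals of 24 h were below those of 9 h. Srxn1 fell by 3.22 on the log2 scale and remained 1.52 above vehicle. Txnrd1, thioredoxin reductase, was at 12.53, 12.64, 12.62, 12.58 and 12.23 and then at 11.05, 10.47, 10.93, 10.85 and 10.82. All animals of 24 h were below all of 9 h, and the distance from vehicle went from 2.91 to 1.18. The remaining member that fell, named after its values were seen, was Osgin1, an oxidative stress-induced growth inhibitor, at -1.79 ± 0.14.

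Gstp1, a glutathione transferase, was at 11.29, 10.94, 10.98, 11.18 and 11.16 at 9 h and 12.94, 13.13, 14.09, 13.63 and 13.56 at 24 h. Every animal of 24 h was above every animal of 9 h, and vehicle animals stayed at 9.47 ± 0.17 and 9.39 ± 0.01. Its change was 2.36 ± 0.18 (5.13-fold, limma adjusted p = 1.42e-06), and it lay 4.08 above vehicle at 24 h. Akr7a3, an aldehyde reductase, was at 10.13, 10.35, 11.06, 9.81 and 9.80 at 9 h and 13.85, 12.90, 14.20, 13.99 and 14.18 at 24 h. The times did not overlap, animal 2 of 24 h was the lowest of its group, and the change of 3.59 ± 0.28 exceeded that with vehicle of 0.82 ± 0.18. Nqo1, which reduces quinones such as NAPQI, was at 12.12, 10.47, 12.15, 10.82 and 10.39 at 9 h and 12.83, 12.03, 13.33, 13.09 and 13.28 at 24 h. Animals 1 and 3 of 9 h were well above the other 3 and the groups overlapped, with a change of 1.72 ± 0.38 (limma adjusted p = 0.00322).

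The exporter Abcc3, which pumps glucuronides into blood, changed by 1.61 ± 0.26. Gsr, glutathione reductase, changed by 0.79 ± 0.19, and without the 9 h animals 1, 4 and 5 it was at 0.47 and did not pass. The first enzyme of glutathione synthesis is a dimer of Gclc and Gclm, and both subunits did not pass between the times, at -0.30 ± 0.16 and 0.07 ± 0.21, and were above vehicle at both, Gclc by 1.27 and 0.67 and Gclm by 1.56 and 1.12. Akr1b8, an aldose reductase-like enzyme named after its values were seen, was 4.30 above vehicle at 9 h and 3.98 at 24 h, with -0.36 ± 0.42 between them. The glutathione transferase Gsta3, which is not in the list, rose by 2.98 ± 0.32 and went from -0.84 to 1.42 relative to vehicle.

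**Figure D3:**
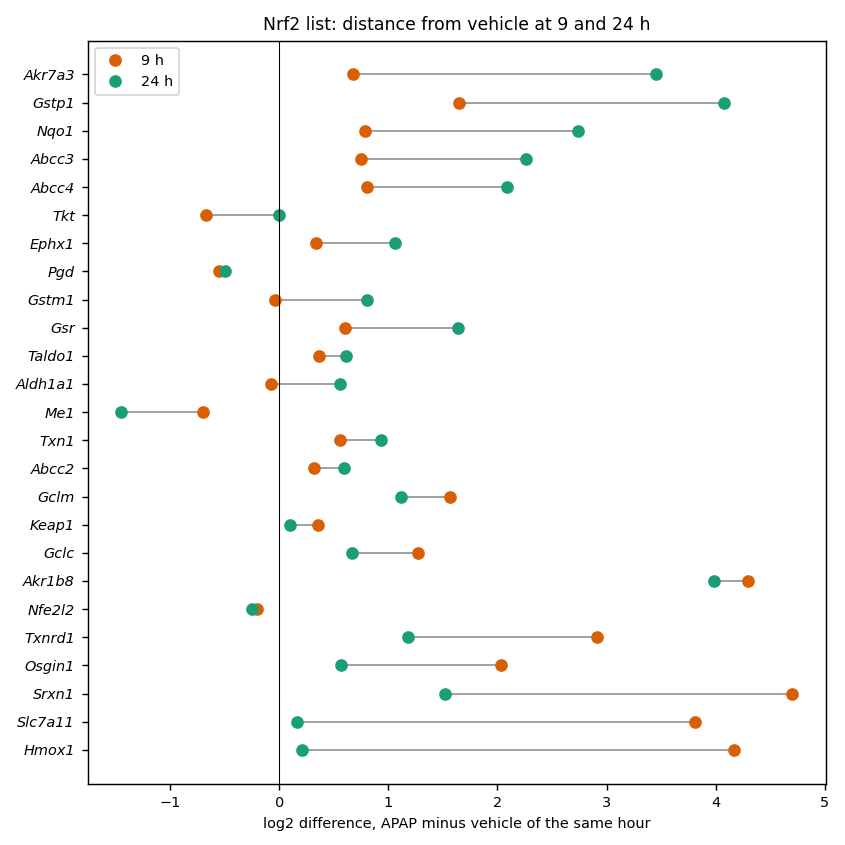
Log2 difference between APAP and vehicle animals of the same hour for 25 of the 26 Nrf2 targets, ordered by their change in APAP animals, with 1 point for 9 h and 1 for 24 h (each from 5 against 5 animals). Gstp1, Akr7a3 and Nqo1 lie farther above vehicle at 24 h than at 9 h, Akr1b8 stays near 4 at both, and Hmox1 and Slc7a11 lie near 0 at 24 h.

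Genes of ribosome biogenesis, which process and assemble rRNA in the nucleolus, fell in 16 of 27 measured members, 0 rose and 11 did not pass. The median was -0.74, and the change was below that with vehicle for 16. At 9 h 24 of the 27 were above vehicle (beside 8.65% of all genes) and at 24 h 1 was (beside 1.56%). Nop56, a core protein of box C/D snoRNPs, was at 10.70, 10.73, 10.46, 10.53 and 10.34 at 9 h and 8.50, 8.26, 8.75, 8.35 and 8.29 at 24 h. The groups did not overlap. Its change was -2.12 ± 0.11 (limma adjusted p = 7.77e-08). Its partner Nop58 was at 11.07, 11.40, 11.48, 11.20 and 11.12 and 9.43, 9.25, 10.29, 9.15 and 9.27. Animal 3 of 24 h lay well above the others there, still below all animals of 9 h. Gnl2 and Gnl3, nucleolar GTPases of the large subunit, changed by -1.80 ± 0.10 and -1.79 ± 0.21.

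Proteasome subunits, which degrade tagged proteins, passed in 3 of 28 measured members between the times, beside 16.5% of all genes. With APAP 3 fell (beside 8.36% of all genes) and 0 rose, and 6 fell with vehicle. At 24 h 14 lay above vehicle (beside 1.56% of all genes) and at 9 h 3 did (beside 8.65%). The change with APAP was above that with vehicle for 7. The count of 3 became 1 without the 9 h animal 2 and without the 24 h animals 1 or 2, and 1 and 7 without the 9 h animals 2 and 3 or 1, 4 and 5. With arrays centred on the ribosomal protein genes 12 fell. Psmd3, a subunit of the regulatory lid, fell (-0.72 ± 0.11).

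Of 27 ER chaperones and genes of the unfolded protein response, 9 rose and 4 fell with APAP, whereas 0 rose and 6 fell with vehicle. The change with APAP was above that with vehicle for 15 and below it for 4. Centred on the ribosomal protein genes, 4 rose and 5 fell with APAP. Sdf2l1, a partner of the ER Hsp70 cycle, was at 10.10, 10.14, 10.22, 10.12 and 9.78 at 9 h and 11.17, 11.34, 10.97, 11.24 and 11.21 at 24 h. All animals of 24 h were above those of 9 h. It rose by 1.11 ± 0.09, against -0.70 ± 0.13 with vehicle. Creld2, a secreted ER stress marker, rose by 1.06 ± 0.10 against -1.24 ± 0.12, and the disulfide isomerase Pdia6 by 0.91 ± 0.06 against -0.40 ± 0.06. Sec61b, a subunit of the ER translocon, rose by 1.09 ± 0.07. Dnajb9, an ER co-chaperone, and Ern1 or Ire1, the sensor itself, fell by 1.81 and 1.25 on the log2 scale, and Ern1 was at -0.83 without the 9 h animals 1, 4 and 5.

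Genes of autophagy and lysosome passed in 9 of 36, beside 16.5% of all genes. There were 7 falls (beside 8.36%) and 2 rises (beside 8.09%), and the median of the list was -0.02 against 0.03 over all genes. Sqstm1 or p62, the cargo receptor that is also an Nrf2 target, was at 12.24, 12.46, 12.35, 12.55 and 12.31 at 9 h and 11.21, 11.38, 11.60, 10.99 and 11.04 at 24 h. The groups did not overlap, and its change was -1.14 ± 0.11. The core conjugation gene Atg12 changed by -1.21 ± 0.07 and Gabarapl1, an Atg8 family protein, by -1.13 ± 0.09. Of 20 genes of hypoxia and glycolysis 8 fell and 0 rose, among them Hilpda, a lipid droplet protein (-2.44 ± 0.14), P4ha1, a collagen hydroxylase (-1.70 ± 0.14), and Pfkfb3, an activator of glycolysis (-1.38 ± 0.14). Of 28 regulators of cell death 4 fell (beside 8.36% of all genes) and 2 rose (beside 8.09%). Tnfrsf12a, the receptor of Tweak, was at 10.45, 10.11, 10.02, 10.62 and 10.88 and 7.04, 6.52, 7.37, 6.36 and 6.17. Every animal of 24 h was below every animal of 9 h, and it changed by -3.72 ± 0.23. Mcl1, a protector of mitochondria, changed by -1.87 ± 0.13, and the pore former Gsdmd rose by 1.08 ± 0.10.

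**Figure D4:**
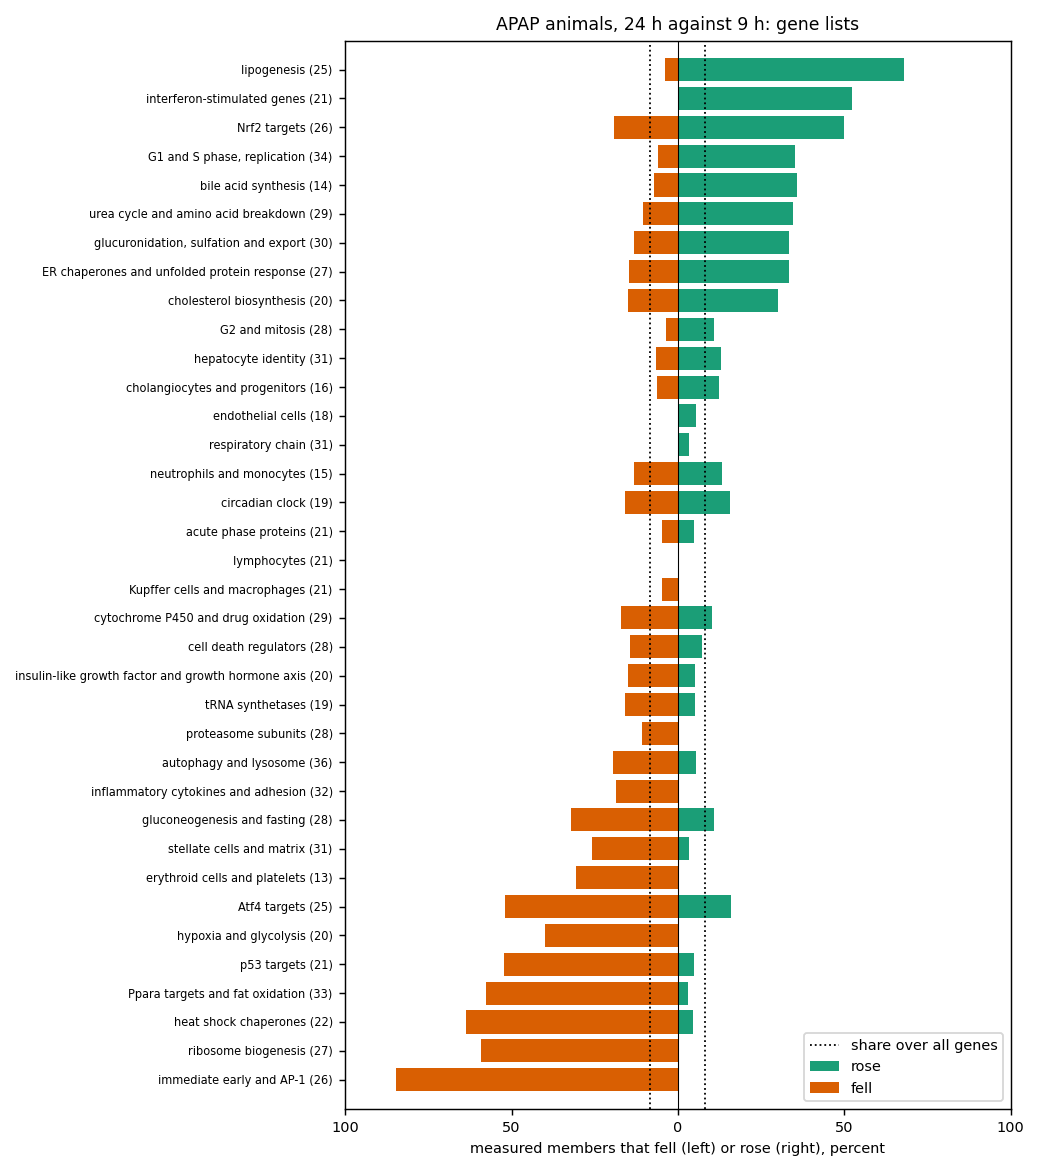
Share of measured members that fell (left) or rose (right) from 9 to 24 h in APAP animals, for 36 gene lists with the number measured in brackets. Dotted lines mark the share over all genes, 8.36% lower and 8.09% higher; immediate early, heat shock, ribosome biogenesis and Ppara lists reach farthest left and lipogenesis and interferon lists farthest right.

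Lipogenic genes, which turn glucose into fat in the fed liver, rose in 17 of 25 measured members, 1 fell and 7 did not pass, with a median of 1.27. With vehicle 8 rose and 3 fell, and the change with APAP was above that with vehicle for 10 and below it for 3. At 9 h 19 of the 25 were below vehicle (beside 8.47% of all genes) and at 24 h 14 were (beside 1.84%). Thrsp or Spot 14, a promoter of fatty acid synthesis, was at 9.07, 8.54, 9.69, 7.45 and 7.80 at 9 h and 13.10, 12.09, 13.06, 12.47 and 12.37 at 24 h. The 2 times were separated by over 2 log2 units. Its change of 4.11 ± 0.38 (17.2-fold, limma adjusted p = 5.34e-06) was the largest rise, beside 0.32 ± 0.20 with vehicle.

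Srebf1, the factor that drives fatty acid synthesis, was at 9.24, 8.63, 8.59, 8.87 and 8.94 at 9 h and 11.96, 11.25, 11.22, 11.38 and 11.42 at 24 h. The times did not overlap, and animal 1 of 24 h was the highest. It had gone from -3.05 to 0.10 relative to vehicle. Mid1ip1, which activates acetyl-CoA carboxylase, changed by 2.18 ± 0.22 against -1.05 ± 0.24 with vehicle.

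Several lipogenic genes rose and were still below vehicle at 24 h. Fasn, fatty acid synthase, was at 8.66, 8.02, 8.32, 8.26 and 8.27 at 9 h and 11.43, 9.96, 11.52, 10.00 and 10.68 at 24 h. Animals 1 and 3 of 24 h were above the other 3, and all were above 9 h. It rose by 2.41 ± 0.29 and was -2.28 from vehicle at 24 h. Scd, which makes monounsaturated fat, was at 13.15, 10.27, 13.00, 10.96 and 11.28 at 24 h and Pnpla3, a lipid droplet acyltransferase and lipase, at 10.15, 6.44, 9.62, 6.35 and 6.48. In both, animals 1 and 3 were again the highest. Scd rose by 2.71 ± 0.51 and Pnpla3 by 2.78 ± 0.71, against 1.28 ± 0.27 and 2.06 ± 0.60 with vehicle, and the difference of the changes did not pass for either (limma adjusted p = 0.087 and 0.658). Without the 9 h animals 1, 4 and 5 the change of Pnpla3 was no smaller, at 2.81, but with fewer arrays it no longer passed (limma adjusted p = 0.0821).

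Genes of cholesterol synthesis moved in both directions, with 6 of 20 measured members rising, 3 falling and 11 not passing. At 24 h 13 of the 20 were below vehicle (beside 1.84% of all genes) and 0 above (beside 1.56%). Idi1 (-2.29 ± 0.40), an isomerase of isoprenoid units, and Sqle (-1.52 ± 0.24), squalene epoxidase, fell, by 1.28 and 0.93 on the log2 scale without the 9 h animals 1, 4 and 5. Fdft1, squalene synthase (1.56 ± 0.14), and Dhcr7, the last reductase of the pathway (1.54 ± 0.14), rose. The mean of the 20 genes was 9.96, 9.33, 9.20, 9.70 and 9.88 in animals 1 to 5 of 9 h and 9.61 to 9.86 at 24 h, so animals 2 and 3 lay below all animals of 24 h and animals 1 and 5 above them.

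Targets of Ppara, the factor of fat oxidation and fasting, fell in 19 of 33 measured members, 1 rose and 13 did not pass. The median was -0.69 beside -0.19 with vehicle, where 6 fell and 1 rose, and the change was below that with vehicle for 13. Acot1, a cytosolic acyl-CoA thioesterase, was at 9.22, 10.20, 7.30, 10.73 and 10.99 at 9 h and 4.52, 4.70, 4.79, 4.71 and 4.74 at 24 h. Animal 3 of 9 h was the lowest of its group and still above 24 h. Its change of -4.99 ± 0.56 (limma adjusted p = 2.24e-05) stood beside -2.91 ± 0.33 with vehicle, where animals of 24 h were at 4.53 ± 0.11. Its mitochondrial relative Acot2 changed by -2.89 ± 0.14 and -0.95 ± 0.14, and Ehhadh, of peroxisomal oxidation, by -2.38 ± 0.19 and -0.96 ± 0.11, with APAP and vehicle. Cpt1a, which admits fatty acids to mitochondria, was at 11.27, 11.37, 10.76, 11.83 and 11.64 at 9 h and 9.06, 9.02, 9.23, 9.11 and 9.85 at 24 h. It fell with APAP (-2.12 ± 0.20) and rose with vehicle (1.44 ± 0.20), a difference of -3.56 ± 0.31. Vnn1, a pantetheinase, fell with APAP (-2.10 ± 0.22) and vehicle (-2.05 ± 0.16), with a difference of -0.06 ± 0.29 whose 95% interval was -0.66 to 0.54.

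Of 28 genes of gluconeogenesis and fasting 9 fell and 3 rose. Igfbp1, a binder of insulin-like growth factors that rises in fasting and stress, was at 13.51, 13.19, 12.88, 13.78 and 13.80 at 9 h and 12.10, 10.82, 12.16, 11.50 and 11.98 at 24 h. The groups were apart, with a change of -1.72 ± 0.26 beside 1.32 ± 0.40 with vehicle, which did not pass. The glucocorticoid target Fkbp5 changed by -1.30 ± 0.15, the insulin receptor substrate Irs2 by -1.42 ± 0.12 and Crem, a cAMP-responsive factor, by -1.62 ± 0.12. Pck1, the rate-limiting enzyme of gluconeogenesis, did not pass at 0.41 ± 0.24. It passed without the 9 h animals 1, 4 and 5, at 0.88.

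**Figure D5:**
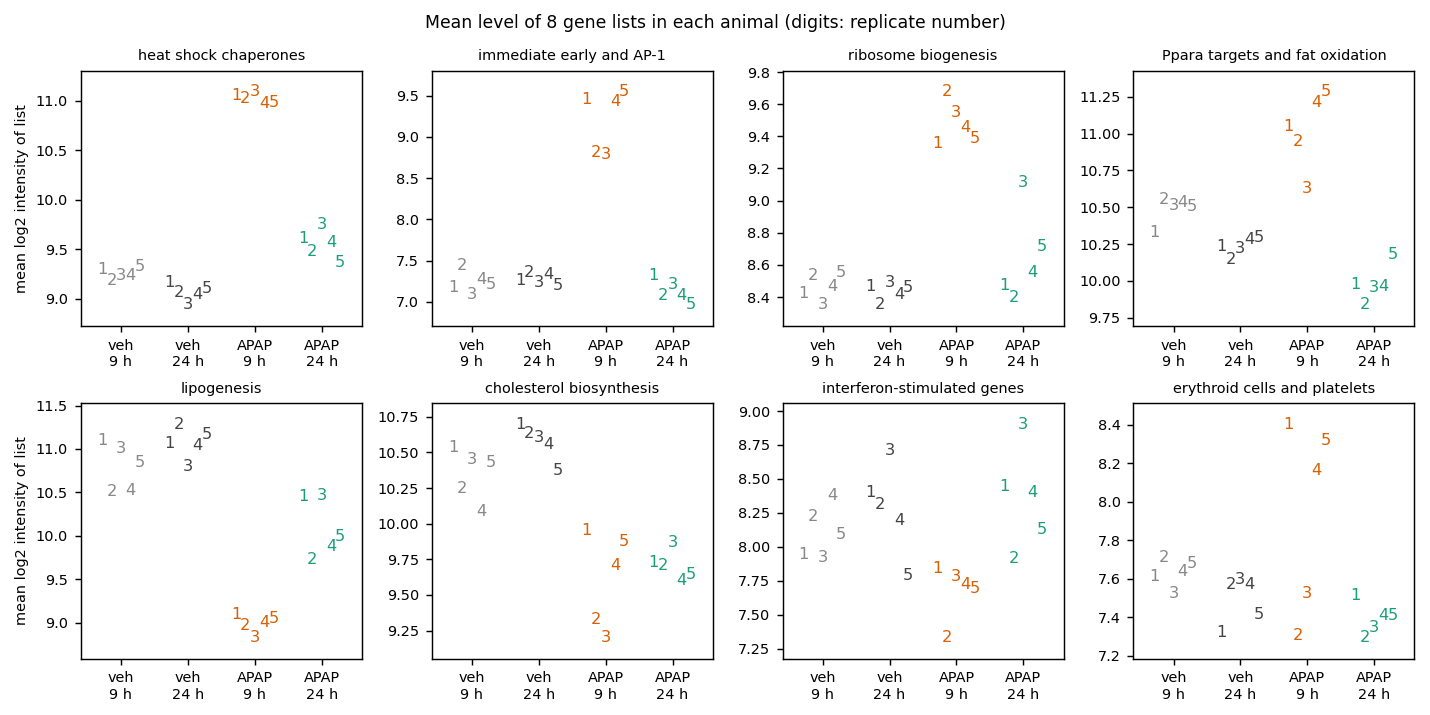
Mean log2 intensity of 8 gene lists in each animal, drawn as its replicate number, for vehicle (veh) and APAP at 9 and 24 h with 5 animals per group. Animals 2 and 3 of the 9 h APAP group lie below animals 1, 4 and 5 for the immediate early, cholesterol and erythroid lists, and animal 3 of the 24 h APAP group is highest of its group for ribosome biogenesis and interferon-stimulated genes.

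Among genes that make or sense bile acids the first enzyme moved most. Of 14 measured members 5 rose and 1 fell, while 8 did not pass. At 9 h 6 had been below vehicle (beside 8.47% of all genes). Cyp7a1, the rate-limiting enzyme of bile acid synthesis, was at 8.24, 7.50, 7.52, 7.61 and 7.81 at 9 h and 11.41, 11.12, 11.77, 12.13 and 11.66 at 24 h. The times were over 2 log2 units apart. Its change was 3.88 ± 0.19 (14.8-fold, limma adjusted p = 5.19e-08), beside 0.81 ± 0.35 with vehicle. Nr0b2 or Shp, a repressor of Cyp7a1 in the textbook loop, rose by 2.58 ± 0.27 as well, and the bile acid receptor Nr1h4 or Fxr by 1.02 ± 0.08. Akr1d1, a reductase of the pathway, was at 10.18, 10.15, 10.35, 8.86 and 10.13 at 9 h and 11.50, 11.79, 11.25, 11.91 and 11.60 at 24 h. Animal 4 of 9 h was far below the other 4, and the change was 1.67 ± 0.25. Cyp8b1, which sets the share of cholic acid, was at 8.95, 11.58, 9.43, 11.75 and 11.68 at 24 h, with animals 1 and 3 far below the others. It fell by 1.78 on the log2 scale, and by 1.47 without the 9 h animals 1, 4 and 5, which did not pass.

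Genes that oxidise drugs passed in 8 of 29, beside 16.5% of all genes. Of 29 measured cytochrome P450 and related genes 5 fell, 3 rose and 21 did not pass, with a median of -0.09. Cyp2e1, the main P450 that activates APAP, was at 14.19, 14.37, 14.30, 14.18 and 14.35 at 9 h and 14.14, 14.12, 14.26, 14.17 and 14.23 at 24 h. The groups overlapped, and the change of -0.09 ± 0.06 had a 95% interval of -0.23 to 0.04. Cyp1a2, which also activates APAP, fell by 0.99 on the log2 scale and Cyp3a2, of the family that oxidises many drugs, was at -0.30 ± 0.10, short of 1.5-fold. Por, which supplies electrons to all microsomal P450s, was at 10.88, 10.74, 10.51, 11.14 and 11.14 at 9 h and 9.06, 8.74, 9.35, 9.12 and 9.29 at 24 h. It fell with APAP (-1.77 ± 0.14) and rose with vehicle (1.09 ± 0.14). Cyp4f1, a fatty acid hydroxylase, rose by 1.27 ± 0.07, and the aryl hydrocarbon target Cyp1a1 by 2.04 ± 0.36.

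Of 30 genes of glucuronidation, sulfation and export 10 rose, 4 fell and 16 did not pass, and without the 9 h animals 1, 4 and 5 there were 6 rises and 3 falls. Ugt2b7, a glucuronosyltransferase, was at 6.33, 6.81, 7.13, 6.29 and 6.29 at 9 h and 8.50, 8.21, 7.52, 10.21 and 11.55 at 24 h. Animals 4 and 5 of 24 h lay above the other 3, and all were above 9 h. It rose by 2.63 ± 0.63 against 0.05 ± 0.06 with vehicle, and by 2.23 without the 9 h animals 1, 4 and 5, where it did not pass. Ugp2, which makes the UDP-glucose used for glucuronides and glycogen, rose by 1.94 ± 0.10 and by 1.05 ± 0.06 with vehicle. The efflux pump Abcb1a fell by 1.58 on the log2 scale with APAP and rose by 0.76 ± 0.18 with vehicle. The urate and phosphate transporter Slc17a3, outside the lists, was at 8.42, 9.45, 9.81, 7.00 and 7.73 at 9 h and 12.11, 11.68, 12.47, 12.32 and 12.50 at 24 h. It went from -2.29 to 1.70 relative to vehicle, a change of 3.73 ± 0.45.

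Of 29 genes of the urea cycle and amino acid breakdown 10 rose (beside 8.09% of all genes), 3 fell (beside 8.36%) and 16 did not pass. Kmo, of tryptophan breakdown, was at 8.85, 8.84, 8.97, 8.15 and 8.86 at 9 h and 11.21, 11.15, 10.77, 11.13 and 11.19 at 24 h. The times lay apart, and the change of 2.36 ± 0.15 left it 0.11 from vehicle. Csad, of taurine synthesis (1.95 ± 0.18), Hal, of histidine breakdown (1.76 ± 0.23), and Gldc, of glycine cleavage (1.51 ± 0.15), rose, whereas Asl, of the urea cycle, fell (-1.43 ± 0.10) and Cps1, its first enzyme, did not pass (0.03 ± 0.21). Car3, the carbonic anhydrase abundant in male rat liver, was at 9.64, 8.84, 9.54, 8.85 and 8.90 at 9 h and 13.43, 13.01, 12.28, 13.04 and 13.07 at 24 h. All animals of 24 h were above those of 9 h, by 3.81 ± 0.22. Ddc, which decarboxylates aromatic amino acids, rose by 2.96 ± 0.18, the acetyltransferase Nat8 by 2.62 ± 0.19 and Nrep, a small neuronal regeneration-related protein, by 3.61 ± 0.46.

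Transcription factors and products that define hepatocytes passed in 6 of 31, beside 16.5% of all genes, with a median of -0.01. There were 4 rises (beside 8.09%) and 2 falls (beside 8.36%), and 3 genes passed without the 9 h animals 1, 4 and 5. Hnf4a, the central factor of hepatocyte identity, did not pass (-0.02 ± 0.10). Foxa1 (0.77 ± 0.15) and Onecut2 (0.86 ± 0.17), other liver factors, rose, and Onecut2 was at 0.42 without the 9 h animals 1, 4 and 5 and did not pass. Of 31 genes of the respiratory chain 1 rose, Ndufs1 of complex I (0.74 ± 0.11), which did not pass without the 9 h animals 1, 4 and 5 (0.57). In the growth hormone axis 3 of 20 fell and 1 rose, the repressor Bcl6 (1.25 ± 0.22), which did not pass in one fit of all 45 arrays (limma adjusted p = 0.0512). Igf1 itself was at 0.36 ± 0.11, short of 1.5-fold, and was -0.81 from vehicle at 24 h. Of 19 clock genes 3 rose and 3 fell. Arntl or Bmal1, the activator of the clock, changed by -0.87 ± 0.13 with APAP and -0.62 ± 0.17 with vehicle, and Per2, its repressor, by 1.65 ± 0.18 with APAP beside 0.42 ± 0.27 with vehicle, which did not pass.

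Among replication genes that passed, rises outnumbered falls. Of 34 genes of G1 and S phase 12 rose (beside 8.09% of all genes) and 2 fell (beside 8.36%) with APAP. With vehicle 5 rose, and the changes differed for 6, 3 each way. Mcm6, a subunit of the replicative helicase, was at 5.40, 5.66, 5.58, 5.59 and 5.63 at 9 h and 8.21, 7.43, 8.02, 7.49 and 7.14 at 24 h. The times were apart, and vehicle animals were at 6.06 ± 0.56 and 7.67 ± 0.84. It rose by 2.09 ± 0.17 with APAP and 1.61 ± 0.37 with vehicle, with a difference of 0.48 ± 0.45 (95% interval -0.45 to 1.42) that did not pass. Rfc4, of the clamp loader, rose by 1.57 ± 0.09 against 0.20 ± 0.14. The 2 members that fell were Pcna, the sliding clamp (-1.11 ± 0.14, 0.74 ± 0.12 with vehicle), and Ccnd1, cyclin D1 (-1.09 ± 0.21, 0.94 ± 0.20 with vehicle), and Ccnd1 lay -1.30 from vehicle at 24 h. Centred on the ribosomal protein genes, 6 members rose and 3 fell.

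Genes of G2 and mitosis passed in 4 of 28, beside 16.5% of all genes. These were 3 rises (beside 8.09%) and 1 fall (beside 8.36%), and 1 gene passed without the 9 h animals 1, 4 and 5. Cdk1, the mitotic kinase, rose by 0.91 ± 0.17, and Top2a and Ccnb1, other mitotic markers, did not pass at 0.27 ± 0.12 and 0.31 ± 0.15. Cdc25b, a phosphatase that activates Cdk1, was at 9.34, 6.09, 6.28, 7.75 and 9.41 at 9 h and 5.97, 5.46, 5.84, 5.91 and 5.32 at 24 h. Animals 2 and 3 of 9 h lay near the 24 h animals, and its change of -2.07 ± 0.60 became -0.48 without animals 1, 4 and 5 and did not pass, and -3.13 without animals 2 and 3.

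Interferon-stimulated genes, the antiviral and antigen-processing programme, rose in 11 of 21 measured members, 0 fell and 10 did not pass, with a median of 0.75. With vehicle 0 passed, and the change with APAP was above that with vehicle for 7. At 9 h 7 had been below vehicle (beside 8.47% of all genes) and at 24 h 0 differed from it (beside 3.4%). Ddx58 or RIG-I, a sensor of viral RNA, was at 6.86, 7.08, 7.53, 6.84 and 6.52 at 9 h and 9.04, 8.62, 9.52, 9.14 and 8.94 at 24 h. No animals overlapped, and it rose by 2.08 ± 0.19 (limma adjusted p = 4.71e-06). Psmb9, the immunoproteasome subunit, was at 6.70, 6.57, 6.88, 6.57 and 6.63 and 8.73, 8.30, 8.87, 8.93 and 8.50. It rose by 1.99 ± 0.12. Isg15, a ubiquitin-like modifier, was at 7.55, 7.43, 7.78, 7.65 and 7.60 and 9.12, 8.24, 9.58, 8.50 and 8.27. Animal 3 of 24 h was the highest of its group, and the change was 1.14 ± 0.23.

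Inflammatory genes fell in 6 of 32, and 0 rose. The 6 became 2 without the 9 h animals 1, 4 and 5. Cxcl1, a chemokine for neutrophils, was at 9.19, 8.64, 8.10, 8.24 and 8.17 at 9 h and 6.65, 6.89, 6.31, 7.26 and 6.66 at 24 h. The groups were apart, with a change of -1.71 ± 0.22 against 0.66 ± 0.17 with vehicle. Ccl2, a chemokine for monocytes, was at 7.67, 6.70, 7.19, 7.73 and 8.33 and 6.75, 6.09, 6.58, 6.11 and 5.58. Its fall of -1.30 ± 0.29 became -0.72 without the 9 h animals 1, 4 and 5 and did not pass, and neither did Ccl3 (-0.40), a macrophage chemokine, or Tnfaip3 (-0.22), an inhibitor of NF-kappaB, whose change was -0.94 ± 0.26 with all animals and -1.42 without the 9 h animals 2 and 3. Osmr, the oncostatin M receptor, fell by 1.25 on the log2 scale. Of 21 acute phase genes 1 fell, the iron hormone Hamp (-1.24 ± 0.27, -0.78 ± 0.16 with vehicle), and 1 rose, C4bpa of complement control (0.65 ± 0.15), which was at 0.57 without the 9 h animals 1, 4 and 5 and did not pass. Lcn2, a marker of injury, did not pass (0.38 ± 0.22).

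Markers of other cell types were given for the same animals, and their part in the results above was not tested. Of 13 erythroid and platelet genes 4 fell and 0 rose. Alas2, the erythroid enzyme of heme synthesis, was at 12.03, 9.02, 9.04, 11.16 and 12.04 at 9 h and 8.51, 8.04, 8.95, 8.38 and 8.21 at 24 h. Animals 1, 4 and 5 of 9 h stood over 2 log2 units above animals 2 and 3, which lay just above the highest animal of 24 h. It fell by 2.24 on the log2 scale, and without animals 1, 4 and 5 it was at -0.61 and did not pass. Hbb, beta globin, was at 14.69, 13.49, 13.62, 14.48 and 14.73 and 13.00, 12.61, 12.96, 13.01 and 12.56. Animals 2 and 3 were the lowest of 9 h and above all of 24 h, and Hbb fell by 1.37 on the log2 scale, and by 0.73 without animals 1, 4 and 5. Pf4, of platelets (-1.39 ± 0.46), and Ahsp, of globin assembly (-0.64 ± 0.23), passed narrowly, and were at -0.17 and -0.10 without the 9 h animals 1, 4 and 5 and at -2.20 and -0.99 without animals 2 and 3. The 4 became 2 without any single one of the 9 h animals 1, 4 or 5 or the 24 h animals 2 or 5, and 1 without the 9 h animals 1, 4 and 5 together.

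Of 15 neutrophil and monocyte genes 2 fell and 2 rose. Those that rose were Fcgr3a (0.94 ± 0.14) and Ly86 (0.66 ± 0.18). Ly86 did not pass without the 24 h animal 1 (0.58) or animal 3 (0.50). Nor did it pass without the 9 h animals 1, 4 and 5, where its change was no smaller (0.70). S100a9, of neutrophil granules, was at 8.47, 4.94, 5.30, 6.56 and 7.24 at 9 h and 5.16, 5.05, 4.78, 4.80 and 5.14 at 24 h. Animals 1, 4 and 5 of 9 h stood above the rest, and the fall of -1.52 ± 0.54 no longer passed when any one animal other than 2 or 3 of 9 h was left out, with changes from -1.56 to -1.02. S100a8, its partner, changed by -1.01 ± 0.34 and lost its call without the 9 h animal 5 (-0.87) or without any one of the 24 h animals 2 to 5 (-1.03 to -0.99). S100a9 and S100a8 were at -0.13 and -0.24 without the 9 h animals 1, 4 and 5, and at -2.44 and -1.53 without animals 2 and 3. The 4 calls of the list became 2 without the 9 h animal 5 or any one of the 24 h animals 1, 2, 4 and 5, and 1 without the 24 h animal 3 or without the 9 h animals 1, 4 and 5. Of 21 Kupffer cell and macrophage genes 1 passed, the haemoglobin scavenger Cd163 (-1.15 ± 0.19), and 2 passed without any one of the 9 h animals 2, 3 or 5 or the 24 h animal 3, 3 without the 9 h animals 2 and 3 together or 1, 4 and 5 together, and 4 without the 24 h animal 5. Of 21 lymphocyte genes 0 passed with limma, 3 of them having an unadjusted p under 0.05. The summed levels of these lists overlapped between the times, with means over the list of 6.28 to 6.83 and 6.37 to 6.60 for neutrophils and monocytes, 8.56 to 8.97 and 8.55 to 9.01 for Kupffer cells, and 6.14 to 6.48 and 6.24 to 6.33 for lymphocytes, at 9 h and 24 h.

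Of 31 genes of stellate cells and matrix 8 fell and 1 rose. Mmp3, a matrix protease, was at 10.32, 10.61, 10.35, 10.08 and 9.67 at 9 h and 7.38, 7.07, 7.96, 8.45 and 4.88 at 24 h. Animal 5 of 24 h was far below the other 4, and the change was -3.05 ± 0.53, leaving it 2.80 above vehicle. Ccn2, a matrix-linked growth factor and Yap target, changed by -3.04 ± 0.42 and by -1.95 without the 9 h animals 1, 4 and 5, and Lrat, the retinol acyltransferase that marks quiescent stellate cells, rose by 1.85 ± 0.14 and lay -0.93 from vehicle. Of 18 endothelial genes 1 rose, Emcn (0.69 ± 0.15), which was at 0.32 without the 9 h animals 1, 4 and 5 and did not pass, and 2 genes passed without the 9 h animal 2 or 3 and 3 without both. Of 16 genes of cholangiocytes and progenitors 2 rose (beside 8.09% of all genes) and 1 fell (beside 8.36%). Afp, the fetal albumin relative (1.38 ± 0.14), and Krt8, a simple-epithelium keratin (0.75 ± 0.14), rose, and Krt8 stood 1.47 above vehicle at 24 h. Epcam fell (-0.65 ± 0.11), and without the 9 h animals 2 and 3 it was at -0.58 and did not pass.

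Set against vehicle of the same hour, 2376 genes passed at 9 h (17.1%) and 472 at 24 h (3.4%), comparisons that share their APAP arrays with the change described here. At 24 h 216 were above (1.56%) and 256 below vehicle (1.84%), the shares over all genes to set beside the list members that follow. The order of the counts turned when arrays were centred on the ribosomal protein genes, with 2496 genes at 9 h (915 above and 1581 below) and 5150 at 24 h (40 above and 5110 below), so the counts above and below vehicle at 24 h hold for the deposited scaling. Members above vehicle at 24 h were 16 of the 26 Nrf2 targets, 14 of the 28 proteasome subunits, 7 of the 30 glucuronidation and export genes (6 were below) and 5 of the 22 heat shock genes. Members below it were 14 of 25 lipogenic, 13 of 20 cholesterol and 5 of 26 immediate early genes.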

How the data were processed

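Liver RNA of 45 rats was hybridised to Affymetrix Rat Genome 230 2.0 arrays, 1 per animal, in 9 groups of 5. The authors deposited log2 expression values, made with affy 1.64.0 in R 3.6.1 by robust multi-array averaging with BrainArray probe annotation (version 19), 1 row per gene for 13877 genes, from 3.48 to 15.07 with 0 missing. RMA sets all arrays to one intensity distribution, so a shift shared by most genes is removed. Gene symbols came from a deposited sheet joined on the row identifier, and its Entrez numbers (another unit, used only for names) matched the gene table for 13530; 923 rows had a placeholder or blank symbol. The 45 value columns of that sheet carry codes that match no label and were not used.

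Each comparison of a group with another was fitted with limma 3.58.1 in R 4.3.3 on the 10 arrays of those groups alone. The difference of the changes was fitted on all 20 arrays of APAP and vehicle animals at 9 and 24 h. Each fit took 1 mean per group, with Benjamini-Hochberg adjustment across the whole table of 13877 genes. Titles number 5 separate animals per group, and the number of arrays limits precision. The naming rule took genes among the 15 largest rises or falls without overlap and up to 6 per list. It also took the 5 largest differences each way and a panel of 45. Other genes are marked, apart from the ribosomal protein genes used for centring. The members, lists and panel were chosen with earlier results of these data known. The fit was tested on simulated data. Alternatives covered scaling, filter, model, thresholds, a replicate block and each animal left out. Leaving out sets of 9 h animals together was added after the data were seen. Some genes that the rule names are not reported here.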

Additional observations from a re-analysis of the deposited data

Results flagged for a closer look

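The change from 9 to 24 h differed between APAP and vehicle animals for 2279 of 13877 genes by limma's test of the difference itself. Among the large upward differences were those of Slc17a3 (3.99), Thrsp (3.79), Car3 (3.77) and Mid1ip1 (3.22), and among the downward ones those of Hspa1b (-5.96), Atf3 (-5.77), Zfand2a (-4.82), Myc (-4.69) and Maff (-4.55).

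One animal stood apart from the other 4 of its group, by a gap of over 0.71 of the group's range, in 26 of 406 groups checked, where chance gives about 1 in 20 groups. At 24 h these were 13 values. Animal 3 was high for Gdf15, a stress-induced cytokine (5.49, others 4.77 to 4.98), for Pmvk of cholesterol synthesis (9.23, others 8.49 to 8.69) and for Nop58 (10.29, others 9.15 to 9.43). The same animal was low for Cps1 (12.49, others 13.31 to 13.60), Kmo (10.77, others 11.13 to 11.21), Gldc (10.05, others 10.73 to 10.96) and C4bpa (12.39, others 13.02 to 13.21). Animal 5 was low for Hmox1 (9.52, others 9.76 to 9.84) and Bag3 (8.72, others 9.22 to 9.39) and high for Cpt1a (9.85, others 9.02 to 9.23). Animal 1 was high for Gadd45a (8.49, others 7.92 to 8.03) and Srebf1 (11.96, others 11.22 to 11.42), and animal 2 low for Akr7a3 (12.90, others 13.85 to 14.20).

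At 9 h the other 13 were spread over all 5 animals. Animal 4 was low for Akr1d1 (8.86, others 10.13 to 10.35), Cyp3a2 (13.37, others 13.71 to 13.81), Sec61b (10.46, others 10.69 to 10.73) and Kmo (8.15, others 8.84 to 8.97). Animal 3 was low for Gdf15 (5.49, others 7.42 to 7.70), Atg12 (9.26, others 9.50 to 9.59) and Cyp2j4, an epoxygenase (10.88, others 11.30 to 11.44), and high for Ect2, of cytokinesis (5.30, others 4.85 to 4.92). Animal 1 was high for Pdia6 (12.26, others 12.08 to 12.13) and low for Mcm6 (5.40, others 5.58 to 5.66). Animal 5 was low for Txnrd1 (12.23, others 12.53 to 12.64) and Sdf2l1 (9.78, others 10.10 to 10.22), and animal 2 high for Asl (13.14, others 12.83 to 12.90).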

How the results depend on the processing

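Without the 1.5-fold limit the counts of genes that passed were 5437 for APAP 24 h against 9 h, 1046 for vehicle, 4462 for the difference of the changes, 6424 for APAP against vehicle at 9 h and 1533 at 24 h. With a 2-fold limit they were 844, 58, 834, 889 and 143, and with limma's treat against 1.5-fold 809, 15, 668, 1062 and 70. Centred on 6 ribosomal protein genes, an alternative added after seeing the data because 0 of 10 planned ones were on the table and that one could not be run, the vehicle count was 418, the difference 3836 and APAP against vehicle at 24 h 5150. At an adjusted p under 0.01 the vehicle count was 140. The fold limits and stricter p set these counts by construction; the cause of the move with centring was not tested. Leaving out 1 animal gave 2225 to 2355 for APAP, 188 to 217 for vehicle, 2233 to 2368 for the difference, 2334 to 2437 at 9 h and 441 to 499 at 24 h. The replicate number as a block gave 2287, 220, 2290, 2372 and 473. The numbers share no animal, and same-numbered APAP animals of 9 and 24 h correlated at -0.147 to 0.065.

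Of the named genes' changes under all alternatives 4588 were on the same side of the threshold, 228 lost it, 5 gained it and 18 changed sign, all 18 in genes that did not pass. Gclm was at -0.050 with cyclic loess, -0.17 centred, -0.046 to 0.25 with 1 animal left out and -0.23 without the 9 h animals 1, 4 and 5. Cps1 was at -0.11, -0.21, -0.058 to 0.23 and -0.26 in the same settings. Hnf4a was at 0.010 with array weights, -0.092 to 0.037 with 1 animal left out and 0.12 without the 9 h animals 2 and 3.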
